A study of Rattus norvegicus with 2 samples.

Results

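The genes described are the mitochondrial ribosomal protein genes, taken as every row of the expression table whose symbol begins with Mrpl or Mrps and a digit. The rule used names only and no measured value, and it found 75 of the 17049 genes. The cells were primary oligodendrocyte precursor cells (OPCs, the dividing glia that give rise to oligodendrocytes) from the brain of wild-type adult rats. One culture had 2 days with amyloid-β (Aβ, which forms the plaques of Alzheimer's disease) at 1 µM, and the other is labelled DMSO, a solvent. The protocol field mentions Aβ for both cultures, and the groups follow the treatment label. The medium was OGM for both, and there was 1 library per group.

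Mitochondria have ribosomes of their own, built from RNA encoded in mitochondrial DNA and from proteins that are all encoded in the nucleus, made in the cytosol and imported. The large subunit joins amino acids and the small subunit reads the messenger RNA. These ribosomes make a small set of hydrophobic proteins of the respiratory chain and ATP synthase, so their loss impairs oxidative phosphorylation. Many of the proteins descend from bacterial ribosomal proteins, and the others have no counterpart in bacterial ribosomes. In human, variants in many of these genes cause combined deficiencies of oxidative phosphorylation.

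By subunit, 48 members belong to the large subunit, among them Mrps18a and Mrps30, which are named as small-subunit proteins but sit in the large one. No row was found under the large-subunit symbols Mrpl9, Mrpl11 and Mrpl24. The small subunit has 26 members. The remaining member, Mrps36, is a component of the 2-oxoglutarate dehydrogenase complex, and RefSeq now names its gene number (294696) Kgd4. A bacterial counterpart exists for 44 members and none for 30.

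The libraries held 15704932 estimated reads with Aβ and 15663751 with DMSO, and 12980 genes reached 1 TPM (reads scaled to gene length and to the depth of the library) in either. With 1 library per group there was no replicate check, so no p-value is given. Intervals of a read ratio are 95% Clopper-Pearson intervals that cover counting error only. Markers of the labelled cell type were uneven. Olig1 was at 1421 TPM with Aβ and 1557 TPM with DMSO, and Pdgfra at 23.2 and 24.6 TPM, whereas Sox10 was at 0.840 and 1.22 TPM and Gpr17 at 0.130 TPM in each. Cspg4 was at 6.65 TPM with Aβ and 3.70 TPM with DMSO, a read ratio of 1.78 (1.54 to 2.05), and C1ql1 at 8.24 and 4.25 TPM, a read ratio of 1.95 (1.32 to 2.91). Of the 8 measured OPC genes, 2 had a read interval above 1 and 4 below. Those below were Olig1 at 0.908 (0.893 to 0.923), Olig2 at 0.890 (0.864 to 0.917), Ptprz1 at 0.952 (0.941 to 0.963) and Pdgfra at 0.931 (0.867 to 0.999). Summed over measured markers, astrocyte genes reached 1796 TPM with Aβ and 1854 TPM with DMSO (6 of 7 measured), beside 2675 and 2884 TPM for OPC genes (8 of 10). Microglia genes summed to 130 and 141 TPM (6 of 7), neuron genes to 127 and 124 TPM (5 of 5), oligodendrocyte genes to 211 and 223 TPM (6 of 7) and fibroblast and pericyte genes to 1.57 and 4.12 TPM (2 of 6). A single gene held the largest part of several sums. Among OPC genes this was Olig1, and Ptprz1 came next at 866 and 905 TPM. Map2 was at 105 and 107 TPM among neuron genes, and Cnp at 169 and 178 TPM among oligodendrocyte genes. Among astrocyte genes Slc1a3 was at 1013 and 987 TPM, S100b at 332 and 362 TPM and Gfap at 328 and 368 TPM. Of the 6 measured astrocyte genes, 1 had a read interval above 1 (Slc1a3) and 4 below. The 4 were Aqp4 at 0.849 (0.804 to 0.898), Gfap at 0.887 (0.861 to 0.914), Aldh1l1 at 0.907 (0.832 to 0.988) and S100b at 0.916 (0.878 to 0.956). Acta2 was listed at 0 with Aβ, and the 3 endothelial genes found were all under 1 TPM. Whether other cell types had a part in the results was not tested.

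Mitochondrial ribosomal protein transcripts were present throughout the set. All 75 members reached 1 TPM in both libraries, so the filter on low values removed none. Together they made up 0.259% of the reads with Aβ and 0.252% with DMSO. Their median level was 66.2 TPM with Aβ and 67.4 TPM with DMSO, against 21.1 TPM in each library over all genes tested. Genes for the cytosolic ribosome, measured the same way, had medians of 2287 and 2355 TPM over 83 genes. Nuclear genes of the respiratory chain and ATP synthase had medians of 254 and 259 TPM over 75 genes. Middle levels therefore ordered as cytosolic ribosome, respiratory chain and mitochondrial ribosome in each library.

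**Figure D1:**
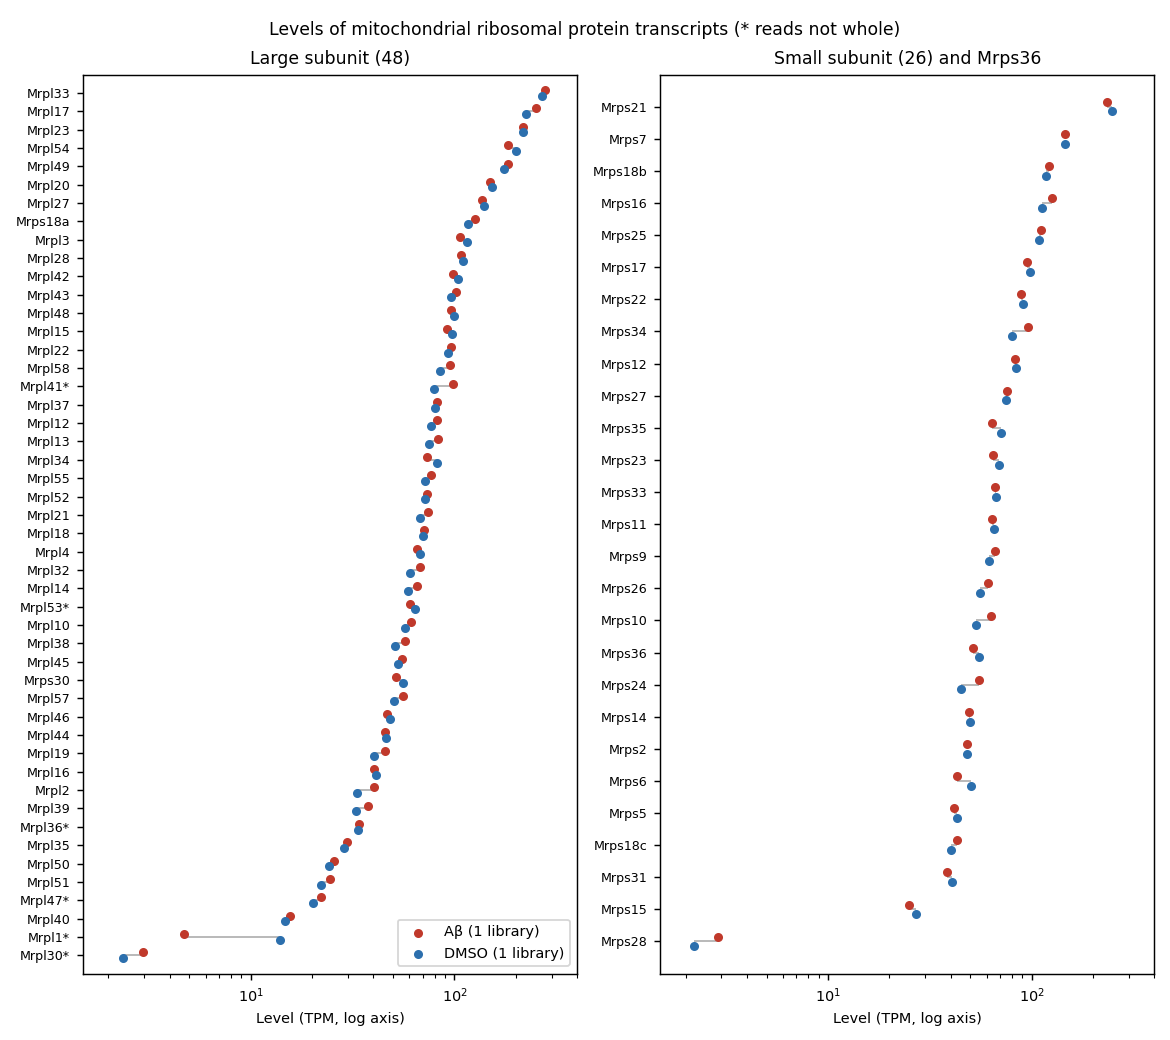
Level of each of the 75 members in TPM on a log axis, with 1 point per library (Aβ above DMSO in each row), for the large subunit at left and the small subunit with Mrps36 at right. Most genes lie between 15 and 278 TPM with the points of both libraries close together, and Mrpl1, Mrpl30 and Mrps28 lie below the rest with Aβ.

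Within the set the levels were spread even though the assembled ribosome holds most of these proteins as single copies. The upper quartile was 2.08 times the lower with Aβ and 2.05 times with DMSO. This spread was not particular to the set. It was 1.95 and 1.98 times for the cytosolic ribosome, and 2.69 and 2.71 times for the respiratory chain and ATP synthase. In the Aβ library 57 of 75 members were within 2-fold of the median, and in the DMSO library 54. The order of members was nearly the same in both libraries, with Pearson's r = 0.982 for log2 TPM and Spearman's rho = 0.987 across the 75 genes, which are not independent replicates. Without Mrpl1, whose reads are described later, r was 0.995.

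Ranked by mean TPM over both libraries, the first 4 places were held by proteins of bacterial descent. Mrpl33, a small protein of the large subunit, stood first in each at 278 TPM with Aβ and 268 TPM with DMSO. Mrpl17, which lies near the tunnel through which the new chain leaves, was at 252 and 223 TPM. Mrps21 of the small subunit was at 234 and 248 TPM. Mrpl17 and Mrps21 changed places between libraries, and of these 3 genes Mrpl17 differed beyond counting error. Mrpl23, another protein of the tunnel exit, was at 217 and 218 TPM. Mrpl54 (184 and 201 TPM) and Mrpl49 (184 and 176 TPM), proteins with no bacterial counterpart, came next. Mrpl20, Mrps7 (a protein of the head of the small subunit), Mrpl27 (near the site of peptide bond formation) and Mrps18a completed the first 10, between 127 and 150 TPM with Aβ and 116 and 152 TPM with DMSO. With DMSO alone Mrps18b, at 118 TPM, stood above Mrps18a.

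At the bottom were 3 genes with few reads. Mrps28 had 12 reads with Aβ and 9 with DMSO, or 2.87 and 2.20 TPM, although its reads were whole numbers. Mrpl30 was at 2.97 and 2.35 TPM, and Mrpl1 at 4.71 and 13.99 TPM. Both had estimated reads that were not whole. Above them came Mrpl40, a protein of the central protuberance, at 15.6 TPM with Aβ and 14.8 TPM with DMSO.

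The subunits had like middle levels. The large subunit had a median of 72.1 TPM with Aβ and 68.9 TPM with DMSO, and the small subunit 64.4 and 65.8 TPM. Members of bacterial descent had medians of 66.8 and 66.3 TPM, and members without a bacterial counterpart 65.4 and 69.8 TPM. These differences are smaller than the spread within each group.

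Promoters were compared because coordinated nuclear genes for mitochondria are known in mammals for sites of the factors NRF1, GABPA (an ETS factor) and YY1. RefSeq promoters of the GRCr8 build, 300 bases from 250 before to 50 after the annotated start, were found for 61 members, and not for Mrpl13, Mrpl15, Mrpl16, Mrpl19, Mrpl21, Mrpl35, Mrpl38, Mrpl43, Mrps12, Mrps22, Mrps24, Mrps28, Mrps34 and Mrps35. The letters searched on both strands were CCGGAAG for ETS factors, AAGATGGC for YY1, and for NRF1 the core GCATGCGC and a longer form in which GC comes before that core. Every match of the longer NRF1 motif also holds the core. The ETS letters were found in 21 of 61 members (34.4%), against 18.5% of 10227 genes measured here at 1 TPM or more and 9.63% of all 27457 genes with a promoter. The YY1 letters were found in 15 members (24.6%), against 5.71% and 3.62%. The longer NRF1 motif was in 4 members (6.56%), against 1.98% and 0.954%, and its core in 5 (8.2%), against 5.34% and 2.77%. At least 1 of the core, ETS and YY1 was in 33 members (54.1%), against 26.7% and 14.7%. The median GC content of the windows was 56.0% in members, 61% in the measured genes and 52.3% in all genes. A match of letters is a description and not evidence of binding.

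**Figure D2:**
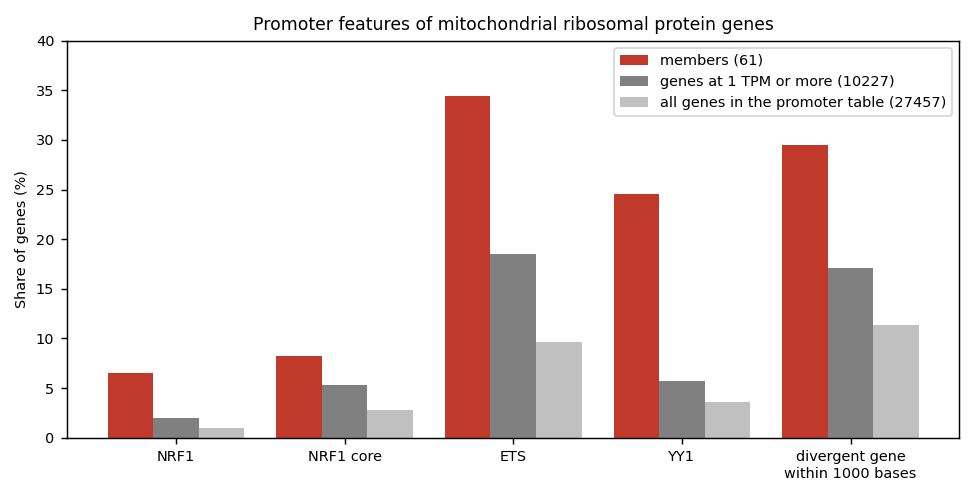
Share of genes (%) whose RefSeq promoter window holds each motif, and share with a gene that starts within 1000 bases in the opposite direction, for 61 members, 10227 genes at 1 TPM or more and all 27457 genes. The members' bar is the highest in each of the 5 comparisons, with 24.6% against 5.71% for YY1.

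The 4 members with the longer NRF1 motif are shown first, as the 150 bases before the start, 5′ to 3′ on the gene's strand, with every match that lies wholly within them in capitals. They are Mrpl17 at chr1:169575700-169575849 (minus strand), Mrpl32 at chr17:55260501-55260650 (plus strand), Mrpl44 at chr9:88554900-88555049 (plus strand) and Mrps18b at chr20:2842856-2843005 (plus strand). Mrps18a at chr9:22367381-22367530 (minus strand) and Mrpl53 at chr4:117172893-117173042 (plus strand) are shown for their ETS letters, of which Mrpl53 has a match on each strand. Mrps18b also has reverse ETS letters that run across the start, from −3 to 4, and are not capitalised.
Mrpl17: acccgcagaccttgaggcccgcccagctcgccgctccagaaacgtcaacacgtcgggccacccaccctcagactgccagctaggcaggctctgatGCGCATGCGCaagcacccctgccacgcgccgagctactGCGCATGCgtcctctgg
Mrpl32: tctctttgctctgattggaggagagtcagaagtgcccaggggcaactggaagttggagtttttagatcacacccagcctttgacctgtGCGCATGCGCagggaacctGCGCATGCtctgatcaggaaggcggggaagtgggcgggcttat
Mrpl44: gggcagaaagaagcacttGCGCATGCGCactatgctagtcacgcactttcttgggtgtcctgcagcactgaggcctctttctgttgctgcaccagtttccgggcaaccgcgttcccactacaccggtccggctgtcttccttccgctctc
Mrps18b: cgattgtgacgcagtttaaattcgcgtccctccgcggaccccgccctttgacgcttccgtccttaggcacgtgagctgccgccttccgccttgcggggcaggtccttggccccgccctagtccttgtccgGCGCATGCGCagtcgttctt
Mrps18a: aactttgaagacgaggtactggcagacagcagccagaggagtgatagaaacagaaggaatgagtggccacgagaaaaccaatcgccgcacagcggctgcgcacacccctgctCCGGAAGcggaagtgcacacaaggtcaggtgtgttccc
Mrpl53: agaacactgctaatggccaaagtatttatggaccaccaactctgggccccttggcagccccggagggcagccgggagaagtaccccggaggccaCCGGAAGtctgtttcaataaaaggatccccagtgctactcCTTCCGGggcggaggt
In Mrpl17 and Mrpl32 the NRF1 motif is followed by a further match of its core. Counting −1 as the base just before the start, the longer form begins at −55 in Mrpl17, −62 in Mrpl32, −132 in Mrpl44 and −20 in Mrps18b.

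The YY1 letters lay mostly just inside the transcribed part. Of 15 matches, 11 were on the gene's own strand within the 50 bases after the start, and none of the members held the reverse letters there. That forward match was thus in 18% of the 61 members, against 2.72% of the 10227 measured genes, in which the reverse letters had 0.284%. The motif itself contains ATG, and all 11 members are shown with 8 bases on either side, motif in capitals, in order of its distance from the start.
Mrps18a: gtgttcccAAGATGGCggccctca
Mrpl37: cccgggcaAAGATGGCggcgtcca
Mrps7: tagcggccAAGATGGCtgcccccg
Mrpl49: gaggagcaAAGATGGCagcaaatg
Mrps30: ggaggacaAAGATGGCggctgcca
Mrpl42: attgaagcAAGATGGCgagcgcgc
Mrpl46: aagacggaAAGATGGCggcgccca
Mrpl50: gcttgtcgAAGATGGCggcgctgt
Mrps18b: tgtgcgacAAGATGGCtgcctcct
Mrps27: tacgctccAAGATGGCggccccca
Mrps10: agggcaccAAGATGGCggcgcgcg
A G followed the motif directly in 8 of the 11, and not in Mrps7, Mrpl49 and Mrps18b. On GRCr8, with the strand, the windows of the first 6 are Mrps18a at chr9:22367365-22367388 (minus), Mrpl37 at chr5:127074946-127074969 (minus), Mrps7 at chr10:101342640-101342663 (plus), Mrpl49 at chr1:212779296-212779319 (minus), Mrps30 at chr2:52195871-52195894 (minus) and Mrpl42 at chr7:32028488-32028511 (minus). Those of the others are Mrpl46 at chr1:142116991-142117014 (minus), Mrpl50 at chr5:68668046-68668069 (minus), Mrps18b at chr20:2843026-2843049 (plus), Mrps27 at chr2:32474225-32474248 (plus) and Mrps10 at chr9:21122408-21122431 (minus).

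A divergent neighbour, starting on the opposite strand within 1000 bases, was found for 18 of the 61 members (29.5%), against 17.1% of the measured genes. Mrpl46 of the large subunit and Mrps11 of the small subunit are such a pair, with 234 bases between their starts. Their reads were 410 and 403 with Aβ and 418 and 405 with DMSO. Other divergent partners included the respiratory chain gene Ndufb5 beside Mrpl47 and the proteasome gene Psma2 beside Mrpl32.

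The comparison of Aβ with DMSO sets 1 culture against another. A response to the peptide and a difference between cultures cannot be told apart. For mitochondrial ribosomal proteins the difference was small, with 47 members higher and 28 lower with Aβ by reads scaled to library totals. Of all genes tested, 50.5% were higher, against 62.7% of members. The median read ratio of members was 1.04 (log2 0.05, middle 50% of the members −0.03 to 0.14), beside 1.00 (log2 0.00, −0.10 to 0.11) over all genes. Summed over members, 40633 reads with Aβ and 39545 with DMSO gave a ratio of 1.02 (1.01 to 1.04). In bulk samples a change in the number of cells of a type and a change in RNA per cell cannot be told apart.

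Single members seldom differed beyond counting error. The read interval lay above 1 for 6 of 75 members (8%), where 12% of all genes tested did, and below 1 for 3 (4%), where 12.5% did. Among members with 200 or more reads over both libraries, 8 of 72 (11.1%) had an interval that excluded 1. Of all genes with 200 or more reads 26.8% did, and of 7127 genes whose reads lay in the same range as those members' 23.2% did. Of these 72 members 45 (62.5%) were higher with Aβ, beside 50.7% of all genes at that depth, and of the 68 with whole reads 43 (63.2%) were, beside 50.3%. By TPM with a pseudocount of 1, 5 members (Mrps24, Mrpl41, Mrpl2, Mrps34 and the sparsely read Mrps28) were at least 1.2-fold higher, where 8.09% of all genes were, and 1 was at least 1.2-fold lower, where 6.98% were. That one, Mrpl1, was also the only member past 2-fold, where 0.493% of all genes were 2-fold lower and 0.501% higher. By reads, 52 members (69.3%) lay within 1.1-fold of equal, as did 60.3% of all genes. None of the 75 members was among the genes listed in the terms of the authors' deposited table of enrichment for genes higher with Aβ. The share of all genes tested that is listed there was not counted, so nothing about the members is concluded from it.

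**Figure D3:**
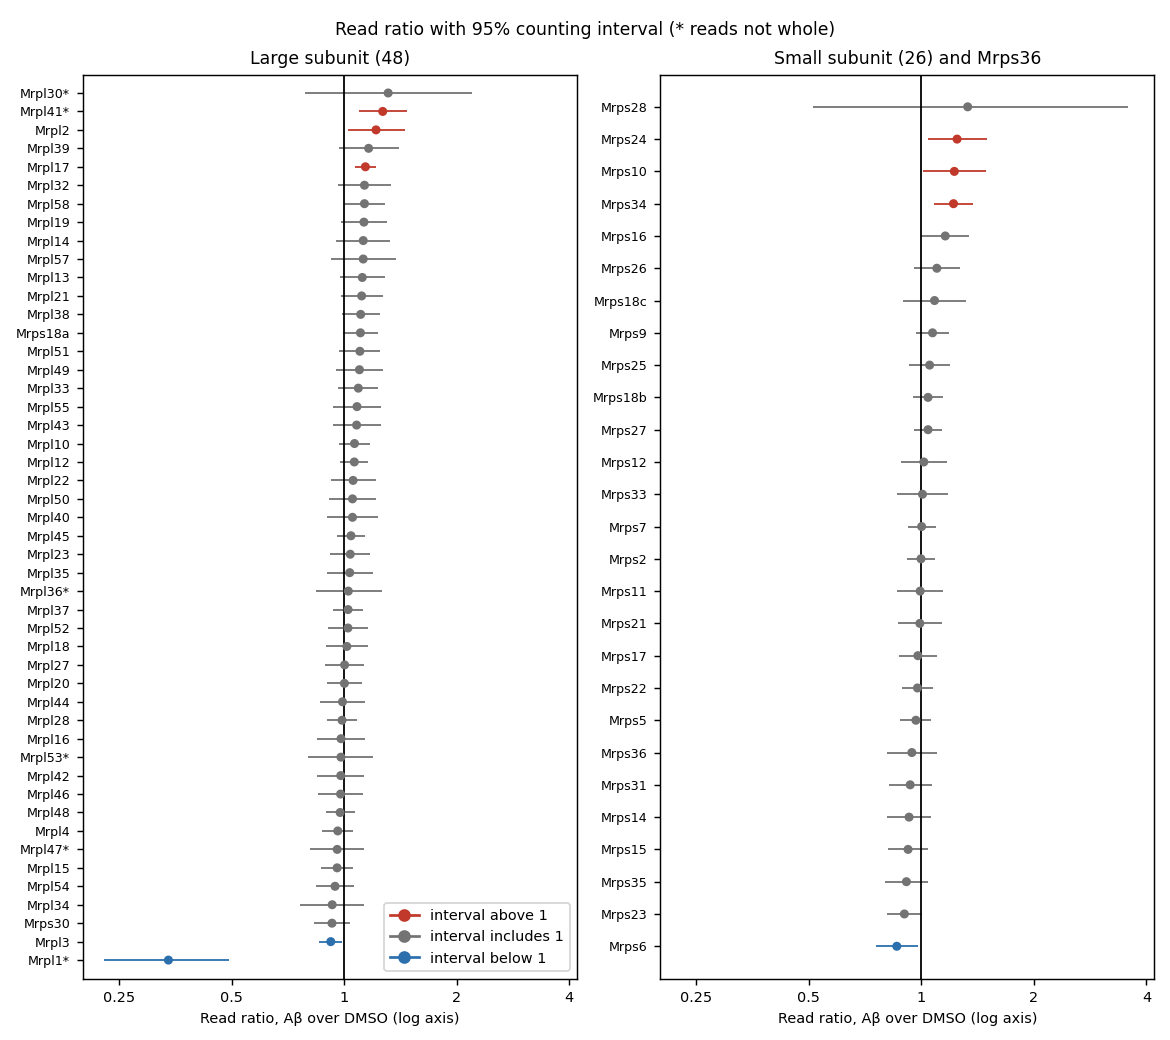
Read ratio of each member, Aβ over DMSO, on a log axis with its 95% counting interval, for the large subunit at left and the small subunit with Mrps36 at right. Red intervals lie above 1 (6 members), blue below 1 (3 members), and Mrpl1 is far from the rest at 0.339.

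In the large subunit 33 of 48 members were higher and 15 lower with Aβ, with a median log2 read ratio of 0.07. In the small subunit 14 of 26 were higher and 12 lower, with a median of 0.01. The summed reads gave 1.04 (1.02 to 1.05) for the large subunit and 1.01 (0.985 to 1.03) for the small one. The intervals of these sums overlap, and the difference between subunits was not tested. Members of bacterial descent and members without a bacterial counterpart had medians of 0.04 and 0.06, with 28 of 44 and 19 of 30 higher. The Mrps36 gene outside the ribosome had 328 reads with Aβ and 347 with DMSO, a ratio of 0.943 (0.808 to 1.10).

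Of the large subunit, Mrpl17 differed from equal with the most reads behind it. It had 1871 reads with Aβ and 1637 with DMSO, a ratio of 1.14 (1.07 to 1.22). Mrpl2, which lies close to the site of peptide bond formation, had 288 and 236 reads and a ratio of 1.22 (1.02 to 1.45). Mrpl41, a protein with no bacterial counterpart, had 411.98 and 323.98 estimated reads and a ratio of 1.27 (1.09 to 1.47). Each of these was higher with Aβ by TPM as well, at 252, 40.3 and 98.9 TPM, against 223, 33.4 and 79.7 TPM with DMSO.

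Mrpl3, a protein of bacterial descent whose human gene is linked to mitochondrial disease, was the one large-subunit gene with whole reads and an interval below 1. It had 1497 reads with Aβ and 1621 with DMSO, a ratio of 0.921 (0.858 to 0.989). The other large-subunit genes among the 10 highest ratios at 200 or more whole reads had intervals that included 1. Mrpl39 was at 1.16 (0.966 to 1.4), Mrpl32 at 1.13 (0.964 to 1.33), Mrpl19 at 1.13 (0.978 to 1.30) and Mrpl58 at 1.13 (0.997 to 1.29). Mrpl58, also called ICT1, is a hydrolase that frees the chain from stalled ribosomes. Among the lowest, Mrps30 was at 0.928 (0.830 to 1.04) and Mrpl34 at 0.929 (0.764 to 1.13).

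Of the small subunit, Mrps24, Mrps10 and Mrps34 had intervals above 1. Mrps24 is the counterpart of bacterial S3 at the entry of the messenger RNA, and it had 276 reads with Aβ and 221 with DMSO, a ratio of 1.25 (1.04 to 1.49). Mrps10, in the head of the subunit, had 237 and 193 reads, a ratio of 1.22 (1.01 to 1.49). Mrps34, a protein without a bacterial counterpart that is needed for a stable small subunit, had 595 and 487 reads, a ratio of 1.22 (1.08 to 1.38). Mrps16 was at 1.16 with a lower bound of 1.00, on 396 and 341 reads.

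Mrps6, of bacterial descent, was the small-subunit gene with an interval below 1. It had 442 reads with Aβ and 513 with DMSO, a ratio of 0.859 (0.755 to 0.978). The next lowest were Mrps23 at 0.90 (0.807 to 1.00), Mrps35 at 0.912 (0.80 to 1.04), Mrps15 at 0.921 (0.813 to 1.04), Mrps14 at 0.927 (0.811 to 1.06) and Mrps31 at 0.933 (0.817 to 1.07). All 5 of these intervals included 1.

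Groups of proteins that sit together in the large subunit were also compared. Mrpl11 of the stalk and Mrpl24 of the tunnel were not found under those symbols, so these 2 groups are incomplete. The stalk proteins Mrpl10 and Mrpl12, which recruit translation factors, were at 1.07 (0.969 to 1.17) and 1.06 (0.976 to 1.16). Of 6 tunnel and anchor genes 5 were higher with Aβ, with a summed ratio of 1.08 (1.04 to 1.13), and Mrpl17 supplied 1871 of their 4539 reads in that library. Mrpl45, which ties the ribosome to the inner membrane, had 1095 reads with Aβ and 1047 with DMSO, a ratio of 1.04 (0.957 to 1.14). The central protuberance, of 6 genes, had a summed ratio of 1.02 (0.968 to 1.07). The Mrps18 paralogs were all above 1, with Mrps18a at 1.11 (0.990 to 1.23), Mrps18b at 1.04 (0.951 to 1.14) and Mrps18c at 1.08 (0.894 to 1.32). A chosen list of genes linked to mitochondrial disease in human had 14 symbols, of which 13 were found. Of these 13 members 7 were higher and 6 lower, with a summed ratio of 1.00 (0.974 to 1.03).

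Estimated reads were not whole for 6 members (8%), as for 13.5% of all genes tested, and all 6 were of the large subunit. For each, the table was searched for a gene model whose reads bring the sum to a whole number in both libraries, within 0.005 reads. Of the 2288 models with reads that were not whole, 1 such partner was found for Mrpl1, Mrpl30, Mrpl36, Mrpl47 and Mrpl53. For Mrpl41 there were 3 candidates, and RGD1560917 was taken because RefSeq names it Mrpl41l1. The search and these sums were chosen after the values were seen. Shared sequence was not examined, and a whole sum can also arise by coincidence.

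Mrpl1, a protein of the stalk where used transfer RNA leaves the ribosome, had 38.11 reads with Aβ and 112.19 with DMSO, a ratio of 0.339 (0.228 to 0.493). LOC100359687 had 228.89 and 147.81 reads, a ratio of 1.54 (1.25 to 1.91). Their sums were 267 and 260 reads, a ratio of 1.02 (0.860 to 1.22). Mrpl1 thus made up 14.3% of the summed reads with Aβ and 43.2% with DMSO, while the sum was near equal. The only 2-fold difference in the set was that of Mrpl1 taken alone, and whether the reads were divided between these models was not tested.

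In the other pairs the member's share of the sum was more alike in the libraries. Mrpl30 made up 9.36% with Aβ and 7.37% with DMSO of its sum with NEWGENE_1308196, and the sums of 409 and 395 reads gave a ratio of 1.03 (0.897 to 1.19). The summed level of that pair was 91.5 TPM in each library, well above the 2.97 and 2.35 TPM listed for Mrpl30 alone. Mrpl36 with LOC100910528 summed to 349 and 341 reads (1.02, 0.877 to 1.19), and Mrpl53 with LOC103692169 to 318 and 309 reads (1.03, 0.875 to 1.2). Mrpl47 overlaps Actl6a in the RefSeq gene table, and that pair summed to 1599 and 1621 reads (0.984, 0.918 to 1.05). Mrpl47 made up 18.1% of that sum with Aβ and 18.6% with DMSO, so the summed ratio is mostly that of Actl6a. Mrpl41 with RGD1560917 summed to 421 and 331 reads, a ratio of 1.27 (1.10 to 1.47), and with the other candidates the ratio was 1.30 (Nfs1) and 1.25 (LOC103689962). With all 6 members summed in this way, 49 of 75 were higher and 26 lower, the lowest log2 read ratio in the set was −0.22 (Mrps6), and 6 intervals lay above 1 and 2 below. Of all genes tested, whose reads were not summed, 50.5% were higher, 12% had an interval above 1 and 12.5% below.

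**Figure D4:**
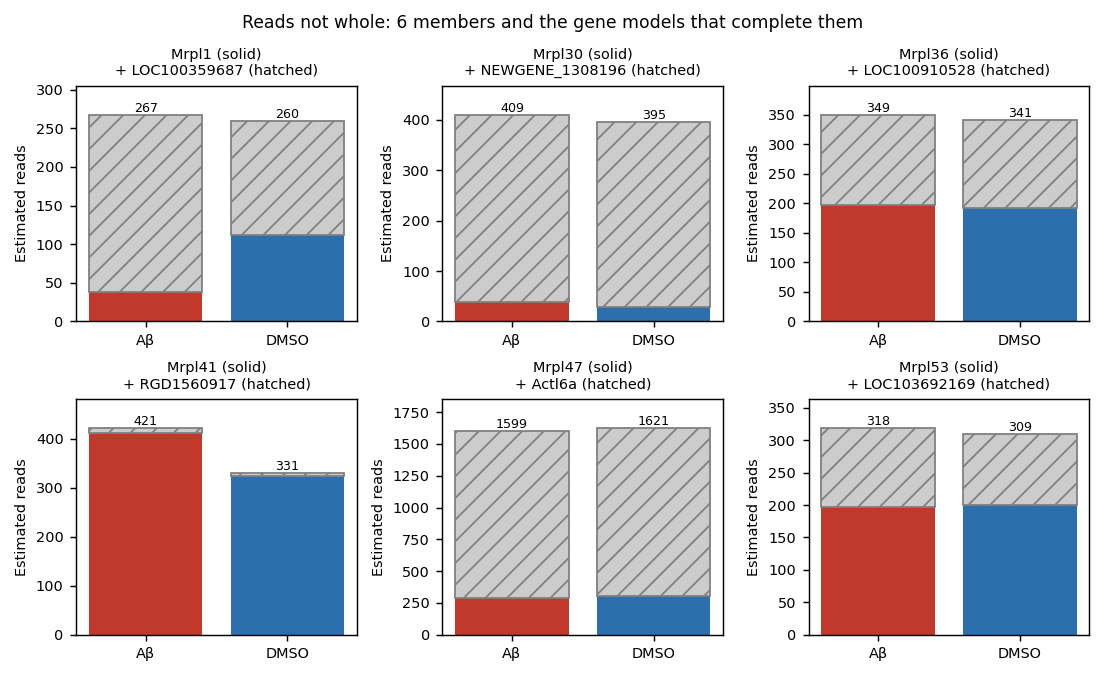
Estimated reads of the 6 members with reads that were not whole (solid) stacked with the gene model that completes them to whole numbers (hatched), Aβ at left and DMSO at right in each panel, with the sum above each bar. For Mrpl1 the solid part differs (38.11 and 112.19 reads) while the sums are 267 and 260.

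Other genes of mitochondrial translation were counted the same way, with the same shares of all genes tested (12% above 1 and 12.5% below) as background. Mitochondrial ribosome proteins named under other symbols (Dap3, Chchd1, Aurkaip1, Ptcd3 and Gadd45gip1) had 3 of 5 higher and no interval that excluded 1, with a median log2 read ratio of 0.07. Aurkaip1 was at 1.10 (0.984 to 1.23) and Chchd1 at 1.06 (0.936 to 1.2). Assembly and rRNA modification genes had 16 of 25 higher, with 2 intervals above 1, 0 below and a median of 0.04. Among them Rbfa, which matures the small subunit, had 416 reads with Aβ and 345 with DMSO (1.2, 1.04 to 1.39), and the rRNA methyltransferase Mrm3 had 195 and 227 reads (0.857, 0.704 to 1.04). Dhx30 had the other interval above 1, with 2676 and 2457 reads (1.09, 1.03 to 1.15).

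Translation factors had 4 of 15 higher, with a median of −0.04, 2 intervals above 1 and 0 below. Tsfm, the exchange factor of the mitochondrial elongation factor Tu, had 321 reads with Aβ and 235 with DMSO, a ratio of 1.36 (1.15 to 1.62). Mtrf1l, a release factor, had 96 and 110 reads (0.870, 0.655 to 1.16). Mitochondrial aminoacyl-tRNA synthetases had 8 of 17 higher and a median of −0.01, with 1 interval above 1, that of Nars2 (1.19, 1.03 to 1.37). Aars2 was at 1.11 (0.975 to 1.26). Genes of mitochondrial DNA transcription and copying had 2 of 9 higher and a median of −0.10. The single-stranded DNA binding protein Ssbp1 was the one with an interval above 1 (1.18, 1.03 to 1.36), and the elongation factor Tefm was at 1.11 (0.886 to 1.38).

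Among 8 nuclear regulators of mitochondrial genes, 5 were higher and 3 lower. The coactivator Ppargc1a had 122 reads with Aβ and 177 with DMSO, a ratio of 0.687 (0.541 to 0.871), at 2.14 and 3.21 TPM. The nuclear receptor Esrra had 669 and 569 reads, a ratio of 1.17 (1.05 to 1.31). No other of the 8 had an interval that excluded 1. Among the factors whose motifs were searched, Nrf1 was at 1.01 (0.914 to 1.12), Gabpa at 0.986 (0.927 to 1.05) and Yy1 at 1.06 (0.944 to 1.19). Of the comparison groups, the respiratory chain had 56 of 75 genes higher with a median log2 ratio of 0.05, and 10 intervals above 1 and 2 below. The cytosolic ribosome had 59 of 83 higher with a median of 0.03, and 31 above and 4 below. Those cytosolic genes held 632527 reads with Aβ and 616753 with DMSO, many more per gene, and their counting intervals are narrower. By TPM the medians were 0.04 for mitochondrial ribosomal proteins, 0.01 for the respiratory chain and −0.01 for the cytosolic ribosome, beside 0.01 for all genes.

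**Figure D5:**
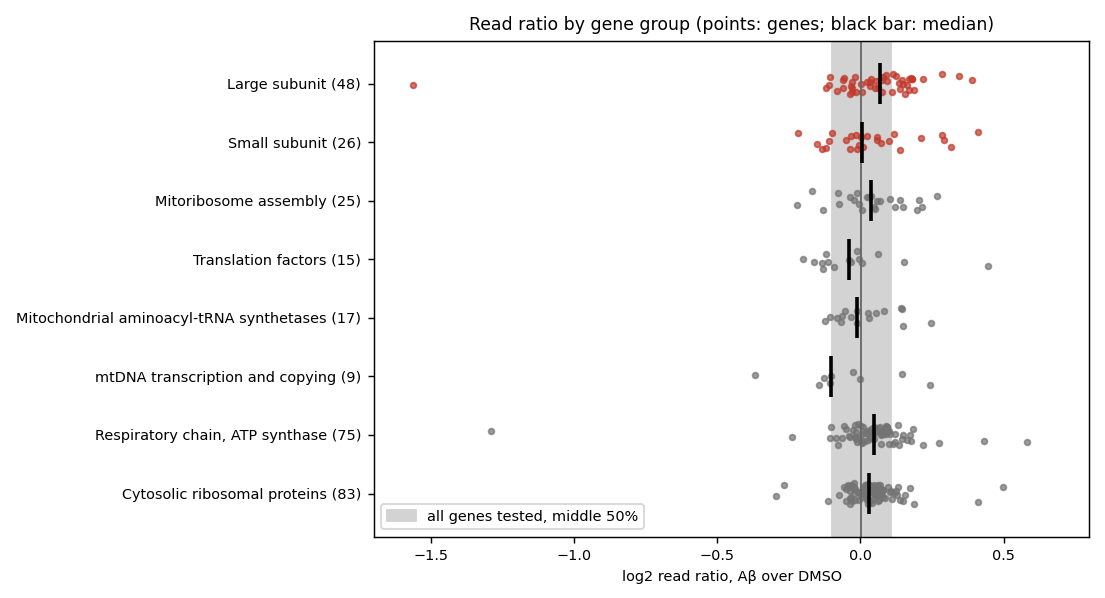
log2 read ratio (Aβ over DMSO) of each gene in 8 groups, with a black bar at each group's median and a grey band for the middle 50% of all genes tested (−0.10 to 0.11). The medians of both subunits (0.07 and 0.01) lie within the band, and Mrpl1 at −1.56 is the single far point among them.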

How the data were processed

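RNA of 2 cultures, 1 per group, was sequenced from mRNA libraries made from 1 µg of total RNA each, per the labels' protocols. Bowtie2 and the build Rnor_6.0 are named in the submitters' processing notes (Bowtie2 version, counting tool and annotation: not given in the sources used here). Per gene and library, the deposited table of the authors has an estimated count of reads, TPM and FPKM. The deposited normalized columns equal the read count rounded up in 17049 genes, so they count as score values made by the authors and were left aside. Of the authors' deposited enrichment table, only the gene names were searched. FPKM was not used.

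The filter kept the 12980 genes that reached 1 TPM in at least 1 library. Read ratios are Aβ over DMSO per total reads, with exact conditional binomial 95% intervals from reads rounded to whole numbers (scipy 1.17.1). TPM ratios carry a pseudocount of 1. With no molecular identifiers reads can be copies of a molecule, so intervals cover counting error only and compare libraries, not conditions. The floor of 3 reads was 0.191 CPM with Aβ and 0.192 CPM with DMSO. The steps were tested on simulated counts. Members, lists and rules were chosen with earlier results of these data known. Named members were the 10 highest in level, the 10 highest and 10 lowest in read ratio at 200 or more whole reads, all with reads that were not whole and some chosen by role (the stalk, Mrpl45, Mrpl58, Mrps36 and the Mrps18 genes); others named (such as Mrps28, Mrpl40, Mrpl44, Mrpl46 and the members with printed promoters) were chosen after values were seen. All 75 gene numbers were found in RefSeq (GRCr8), used for names, neighbours and promoters. Scaling was also done with TMM (edgeR 4.0.16) and median-of-ratios.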

Additional observations from a re-analysis of the deposited data

How the results depend on the processing

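Under no filter, 200 or more reads, whole reads only, TMM, median-of-ratios, a total without the 10 most abundant genes and reads summed with the completing gene models, the median log2 read ratio of members was 0.04 to 0.05, 5 to 7 intervals lay above 1 and 2 or 3 below. These scalings moved the median of all genes by under 0.01 on the log2 scale. The count of members 2-fold lower by TPM, 1 (Mrpl1), was 0 at 200 or more reads, 0 with whole reads only and 0 with a pseudocount of 5 TPM. The count 1.2-fold lower was likewise 0 at 200 or more reads and 0 with whole reads only. In the filtered settings Mrpl1 is left out by construction. The count 1.2-fold higher, 5, was 2 with a pseudocount of 5 TPM. With reads summed in that way, an alternative chosen after seeing the data, the log2 read ratio of Mrpl1 was 0.035 (a ratio of 1.02) in place of −1.56. Of 126 values of named genes under the alternatives, 125 stayed within their counting interval. No paired analysis was possible because each group has 1 library, and no library could be left out for the same reason. Depth limits single members: Mrps18c, on 432 reads over both libraries, had a ratio of 1.08 with an interval of 0.894 to 1.32.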

Other observations

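Reads and TPM gave slightly different ratios for some members. In 6 members the reads were higher with Aβ while the TPM was lower, and in 2 the reverse held. For the 10 members with whole reads and the fewest reads per TPM, which are those with the shortest counted length, the log2 TPM ratio was lower than the log2 read ratio by a median of 0.05 (−0.05 as TPM minus reads). For the 10 with the most reads per TPM that median was 0.00. Mrpl33 shows it, at log2 ratios of 0.05 by TPM and 0.13 by reads. Mrps14, at −0.02 by TPM and −0.11 by reads, differed the other way.

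Of 17 divergent neighbours with values, 1 read interval lay above 1 and 4 below, where 12% and 12.5% of all genes tested did. Fau, beside Mrpl49, had a read ratio of 1.09 (1.04 to 1.14) and Mrpl49 itself 1.10 (0.949 to 1.27). The condensin gene Ncapd2, beside Mrpl51, was at 0.90 (0.852 to 0.951), and Mrpl51 at 1.10 (0.972 to 1.25). Ppp1r10, beside Mrps18b, was at 0.852 (0.797 to 0.910), and Gga3, beside Mrps7, at 0.860 (0.762 to 0.969), while Mrps7 was at 1.00 (0.918 to 1.09). Eme1, beside Mrpl27, was at 0.805 (0.661 to 0.979). The reads of Eme1 and of Fau were not whole. Members with the ETS letters had a median log2 read ratio of 0.05 and those without 0.02, and for the YY1 letters the medians were 0.04 and 0.03. For the longer NRF1 motif they were 0.12 in the 4 members with it and 0.03 in those without, and for its core 0.08 in 5 members and 0.03 in those without. None of these differences was tested.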
